A study of Mus musculus with 1931 samples.

Results

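The 10 genes described here encode 6 apolipoproteins (*Apoe*, *Apoc1*, *Apob*, *Apoa1*, *Apoa4* and *Apom*) and 4 carrier proteins of blood plasma and yolk sac fluid (*Ttr*, *Rbp4*, *Afp* and *Trf*). They were chosen by name, and all 10 were among the 20999 genes measured. The question was whether cells with a visceral endoderm (VE)-like program in Rosette-to-Lumen stage embryoids (RtL-embryoids) expressed the secretory genes of mature visceral endoderm. RtL-embryoids are aggregates of 3 kinds of mouse embryonic stem cell (ESC). Kermit ESCs, which carry GFP under a *Pou5f1* promoter, form the epiblast (Epi)-like compartment. 5-Factor ESCs are driven to an extraembryonic ectoderm (ExE)-like fate by 5 transgenes that doxycycline (DOX) switches on, *Eomes*, *Cdx2*, *Gata3*, *Tfap2c* and *Ets2*. ESCs with a DOX-inducible *Gata6* transgene and mCherry (iGATA6 ESCs) supply the VE-like cells. In the embryoids and in the 2D cultures of induced trophoblast stem cells (iTSC, from 5-Factor ESCs) and induced extraembryonic endoderm cells (iXEN, from iGATA6 ESCs), a first phase without DOX was followed by 3 days with it (2 µg/ml), and cells were taken 24 h after its removal. The 2D ESC culture was kept in 2i/LIF.

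Visceral endoderm is the epithelium that covers the early mouse embryo before a placenta works. It takes up maternal lipids and proteins from its outer face by endocytosis, and it packs lipids into apolipoprotein particles and releases plasma proteins toward the embryo, much as the liver does later. Parietal endoderm, its sister lineage, instead lays down a thick basement membrane, and extraembryonic endoderm cells in culture can resemble either lineage.

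The plates held the sorted 3D cells in 3 blocks of well columns, and the labels give the well but not the sort gate, which by the study's methods was set on mCherry, GFP or CD40. Of 1931 wells, 1406 had at least 2500 genes above 0 and were kept. Of the 982 kept 3D cells, 32.1% were in columns 9-16, 31.98% in columns 1-8 and 35.9% in columns 17-24, and the 424 kept 2D cells were spread almost evenly over iXEN, iTSC and ESC (33.3%, 33.3% and 33.5%). In columns 9-16 all 7 VE markers were higher than in the other blocks, and the VE markers led the Epi and ExE markers in all cells except 3 with Epi and 2 with ExE markers leading. In columns 1-8 the Epi markers led in all cells but 1. In columns 17-24 all 7 ExE markers were highest among the blocks, but the ExE markers led in 59.8% of cells only, the Epi markers in 33.4% and the VE markers in 24 cells (6.80%). The blocks are therefore called VE-like, Epi-like and, by position, columns 17-24. VE markers led in every iXEN cell, Epi markers in every ESC, and in iTSC ExE markers led in 95 cells and Epi markers in the other 46. Of the 7 VE markers, none was at 0 in all cells of the VE-like block or of iXEN.

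Among markers of other lineages, the sum of 8 parietal endoderm markers was higher in the endoderm-like groups than in the Epi-like block. It was 5308 TPM in the median VE-like cell (46.9 to 14917). The median iXEN cell had 8077 TPM (1276 to 19047) and the median Epi-like cell 55.5 TPM. *Sparc* was the largest part of this sum, at a mean of 3673 TPM in the VE-like block and 6559 TPM in iXEN. Among the 3D blocks, 6 of the 8 markers were highest in the VE-like block, but *Plat* and *Thbd* were not. *Plat* was still above the Epi-like block (32.8 against 0.0662 TPM), and *Thbd* was low in both (0.0812 against 0.103 TPM). *Pou5f1*, a pluripotency gene, was above 0 in 90.8% of VE-like cells, at a mean of 285.8 TPM, against 921 TPM in the Epi-like block and 100.7 TPM in iXEN. Markers of fibroblasts and of erythroid cells summed to a median of 0 in the VE-like block and in iXEN. The part of these other programs in the results was not tested.

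Each condition is 1 sample, plates 3, 4 and 5 are technical splits of 1 pool of embryoids, and no test between conditions was made. TPM (transcript levels corrected for transcript length and scaled per cell) keep no read number, so depth was read as the genes above 0 per cell, with a median of 5348 in the VE-like block, 4823 in the Epi-like block, 5396 in columns 17-24, 8699 in iXEN, 8537 in iTSC and 9093.5 in ESC. Between 3D and 2D, culture, plate and library preparation differ together and cannot be told apart. Levels are means over all cells of a group, and differences are of log2(mean TPM + 1). A difference counted as past the fold at 1 or more (2-fold) with, where a 3D block was compared, the same sign on each of the 3 plates. Between 2D cultures size alone counted, so that rule was looser. Shares of cells are given with exact 95% binomial (Clopper-Pearson) intervals, which cover counting error only.

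*Apoe*, which encodes a ligand of the lipoprotein receptors, was the most abundant of the 10 genes in all 6 groups. It ranked 7th of all genes by mean in the VE-like block and 5th in iXEN. In the VE-like block it was above 0 in every cell, from 16.9 TPM in the lowest through 2706 in the median to 15128 in the highest cell. The plate means were 3586, 3166 and 3006 TPM on plates 3, 4 and 5. In the Epi-like block the median was 1619 and the highest cell 8127 TPM, with plate means of 2097, 1878 and 1916 TPM. The cells of these blocks overlapped widely, but the plate means did not. Means over all cells were 3265 TPM in the VE-like and 1961 TPM in the Epi-like block, a difference of 0.73 on the log2 scale (0.65 to 0.77 over plates) that was below the fold. iXEN cells had a mean of 4549 TPM and a median of 3496 TPM (312.4 to 13574 over cells), and the VE-like block lay 0.48 below them (0.34 to 0.60 below over plates). The other 2D cultures were lower, with 957 TPM in iTSC and 841 TPM in ESC. Columns 17-24 had 703 TPM and the gene was above 0 in 81.3% of cells (76.8 to 85.2%).

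*Apoc1* encodes a small exchangeable apolipoprotein and lies beside *Apoe*. Its order over the groups was different. The mean was 180.4 TPM in iTSC, 153.1 in iXEN, 96.9 in the VE-like block, 70.4 in columns 17-24, 65.3 in ESC and 57.1 in the Epi-like block. The VE-like block lay 0.75 above the Epi-like block (0.62 to 0.85 over plates) and 0.65 below iXEN (0.48 to 1.02 below), neither past the fold. It was above 0 in 66.3% of VE-like cells (60.8 to 71.5%) but in 57 to 79.3% by plate, and in 97.9% of iXEN cells (93.9 to 99.6%). Plate 3, with the highest share, also had the most genes per cell, 6622 in the median VE-like cell against 4913 and 4957 on plates 4 and 5.

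The *Apoe* cluster on mouse chromosome 7 (GRCm38, chr7:19671579-19699188, minus strand, Gencode vM21) spans 27.6 kb and holds *Apoe*, *Apoc1*, *Apoc4* and *Apoc2*. *Apoc2* encodes the cofactor of lipoprotein lipase. It had a mean of 107.03 TPM in iXEN, 37.7 in ESC, 20.7 in the VE-like block and at most 1.41 in the other groups. By share the order was different, with 73.9% of ESCs, 29.1% of iXEN cells and 6.98% of VE-like cells above 0. *Apoc4* stayed between 1.28 and 3.59 TPM in all 6 groups. The 4 neighbours therefore did not share an order of means over the groups.

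*Apob*, the scaffold of very-low-density lipoproteins and chylomicrons, was found in few VE-like cells. It was above 0 in 27 cells, or 8.57% (5.72 to 12.2%), with a highest value of 828 TPM, and 4 cells held more than 50% of the summed level. The mean of 12.1 TPM came from unequal plates, at 0.724, 11.9 and 25.3 TPM on plates 3, 4 and 5. In the Epi-like block *Apob* was above 0 in 5 cells with a mean of 0.443 TPM, and the difference of 3.18 went the other way on plate 3, where it was -0.46. In iXEN it was above 0 in 40 cells, or 28.4% (21.1 to 36.6%), with a mean of 19.2 TPM. ESCs and iTSCs each had 7 positive cells, at up to 3.11 and 13.4 TPM.

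*Apoa1*, the main protein of high-density lipoproteins, was rarer still. It was above 0 in 11 VE-like cells, or 3.49% (1.76 to 6.16%). The mean of 12.6 TPM rested on 1 cell of 2211 TPM, which held 55.7% of the sum, and the plate means were 1.21, 20.98 and 16.4 TPM. Epi-like cells had 6 positive, or 1.91% (0.704 to 4.11%), so the intervals of the shares overlapped. In iXEN 17 cells were positive, or 12.1% (7.18 to 18.6%), with a mean of 18.8 TPM. *Apoa1* lies in a cluster on chromosome 9 (GRCm38, chr9:46228580-46271919) with *Apoc3*, *Apoa4* and *Apoa5*.

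*Apoa4* encodes an exchangeable apolipoprotein of chylomicrons. It was listed at 0 in all ESCs and in all Epi-like cells, where the exact interval reaches 1.17% (the simpler limit of 3 counts gives 0.955%). In the VE-like block 34 cells were positive, or 10.8% (7.59 to 14.8%), up to 190.1 TPM, and the plate means of 4.26, 6.03 and 4.69 TPM were alike. The iXEN mean was 5.84 TPM with 19.9% of cells positive (13.6 to 27.4%), and the VE-like block differed from it by -0.19 (-0.38 to 0.04 over plates). Its neighbours *Apoc3* and *Apoa5* had at most 2.12 and 0.202 TPM in any group.

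*Apom* encodes the carrier of sphingosine-1-phosphate on high-density lipoproteins and was, after *Apoe* and *Apoc1*, the most widely found of the genes in VE-like cells. It was above 0 in 32.4% of them (27.2 to 37.9%), up to 657 TPM. The plate means were 27.5, 24.8 and 28.3 TPM, while the share was 43.2% on the deeper plate 3 and 25.2% and 27.8% on plates 4 and 5. Only 5 Epi-like cells were positive, with a mean of 1.09 TPM against 26.8, a difference of 3.73 (3.60 to 3.85). In iXEN *Apom* was above 0 in 80.9% of cells (73.4 to 87%), with a median of 32.2 and a mean of 107.98 TPM. The VE-like block lay 1.97 below iXEN (1.90 to 2.08 below over plates). ESCs were also positive in 45.1% of cells (36.7 to 53.6%), but at a mean of 5.77 TPM and never above 73.2 TPM.

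**Figure D1:**
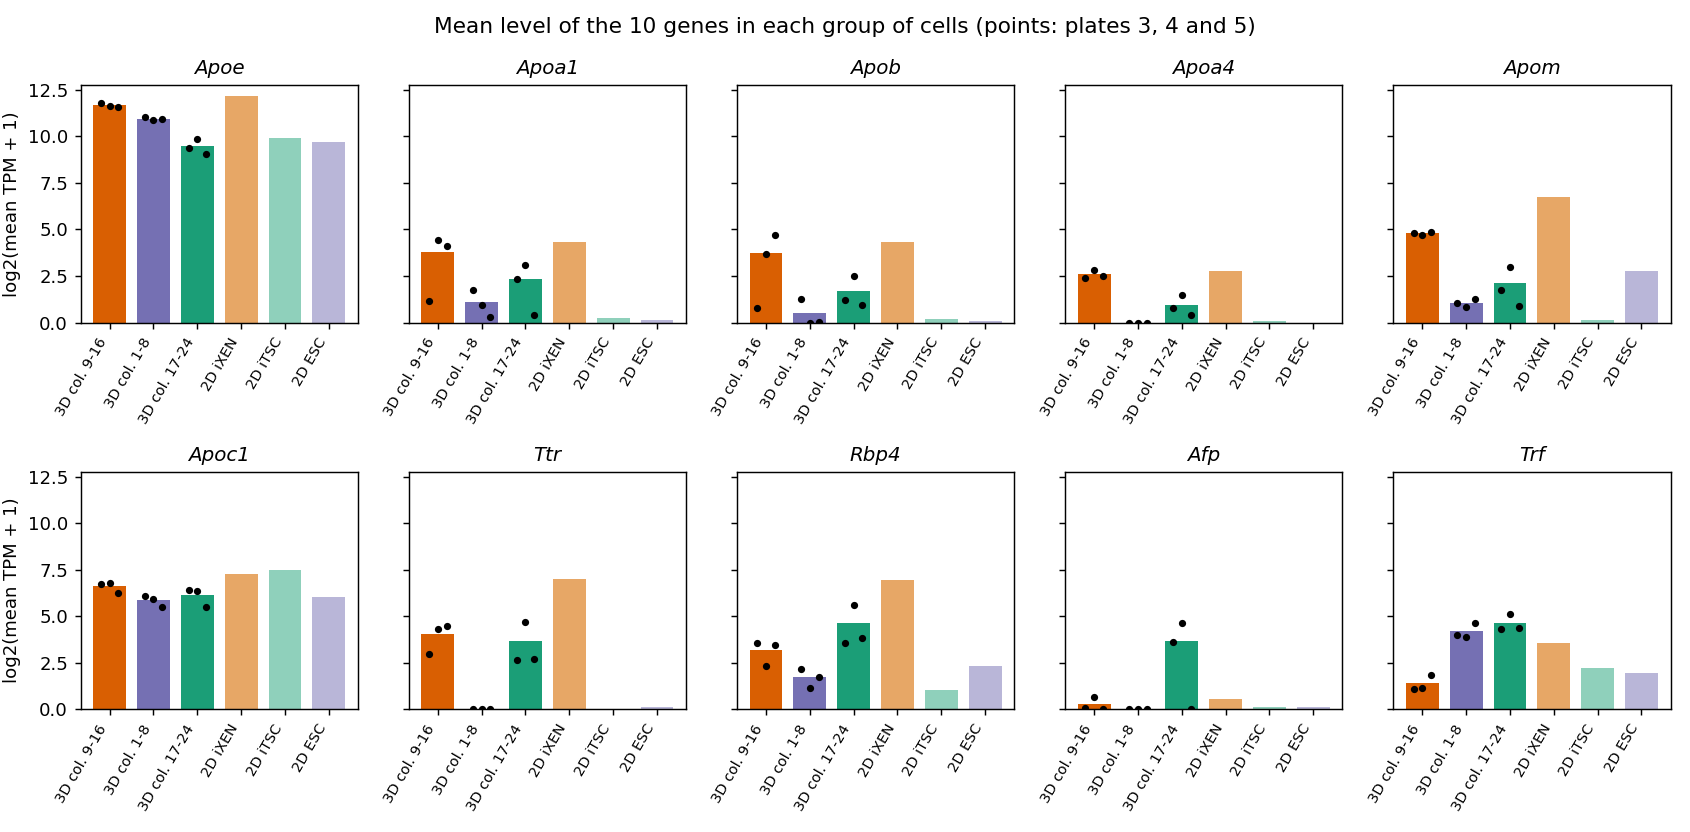
Bars give log2(mean TPM + 1) of each gene over all cells of a group, and points the same on plates 3, 4 and 5 for the 3D blocks. The plates of columns 9-16 lie close together for *Apoe*, *Apom* and *Apoa4* and far apart for *Apoa1* and *Apob*, and iXEN stands highest for *Ttr*, *Rbp4* and *Apom*.

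*Ttr* and *Rbp4* encode partner proteins, since transthyretin carries thyroxine and binds the retinol-binding protein RBP4 in plasma. *Ttr* was above 0 in 31 VE-like cells, or 9.84% (6.79 to 13.7%), with a highest value of 1406 TPM and plate means of 6.90, 19.02 and 21.3 TPM. It was listed at 0 in all Epi-like cells, with the same upper limits as *Apoa4*. In iXEN 73 cells were positive, or 51.8% (43.2 to 60.3%), with a median of 4.68, a mean of 125.9 and a highest value of 1918 TPM. The VE-like block, at a mean of 15.4 TPM, lay 2.95 below iXEN (2.51 to 4.01 below over plates). Only 1 iTSC and 4 ESCs had a value, none above 5.88 TPM.

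*Rbp4* followed *Ttr* in iXEN, with 76 cells positive, or 53.9% (45.3 to 62.3%), a median of 4.62, a mean of 123.7 and a highest value of 2975 TPM. In the VE-like block 30 cells were positive, or 9.52% (6.52 to 13.3%), up to 267.8 TPM, with plate means of 10.7, 4.05 and 9.97 TPM. The mean of 8.21 TPM lay 3.76 below iXEN (3.42 to 4.63 below over plates), the largest deficit of the 10 genes on this scale. *Rbp4* was above 0 in 16.4% of cells in columns 17-24 (12.7 to 20.7%), with a mean of 23.5 TPM that came to 5.93 TPM in the wells led by ExE markers, and in 23.2% of ESCs (16.6 to 31.1%), with a mean of 4.02 TPM. In the Epi-like block 3.50% of cells were positive (1.76 to 6.18%), with a mean of 2.33 TPM, and the VE-like block lay 1.47 above it (1.19 to 1.74 over plates).

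**Figure D2:**
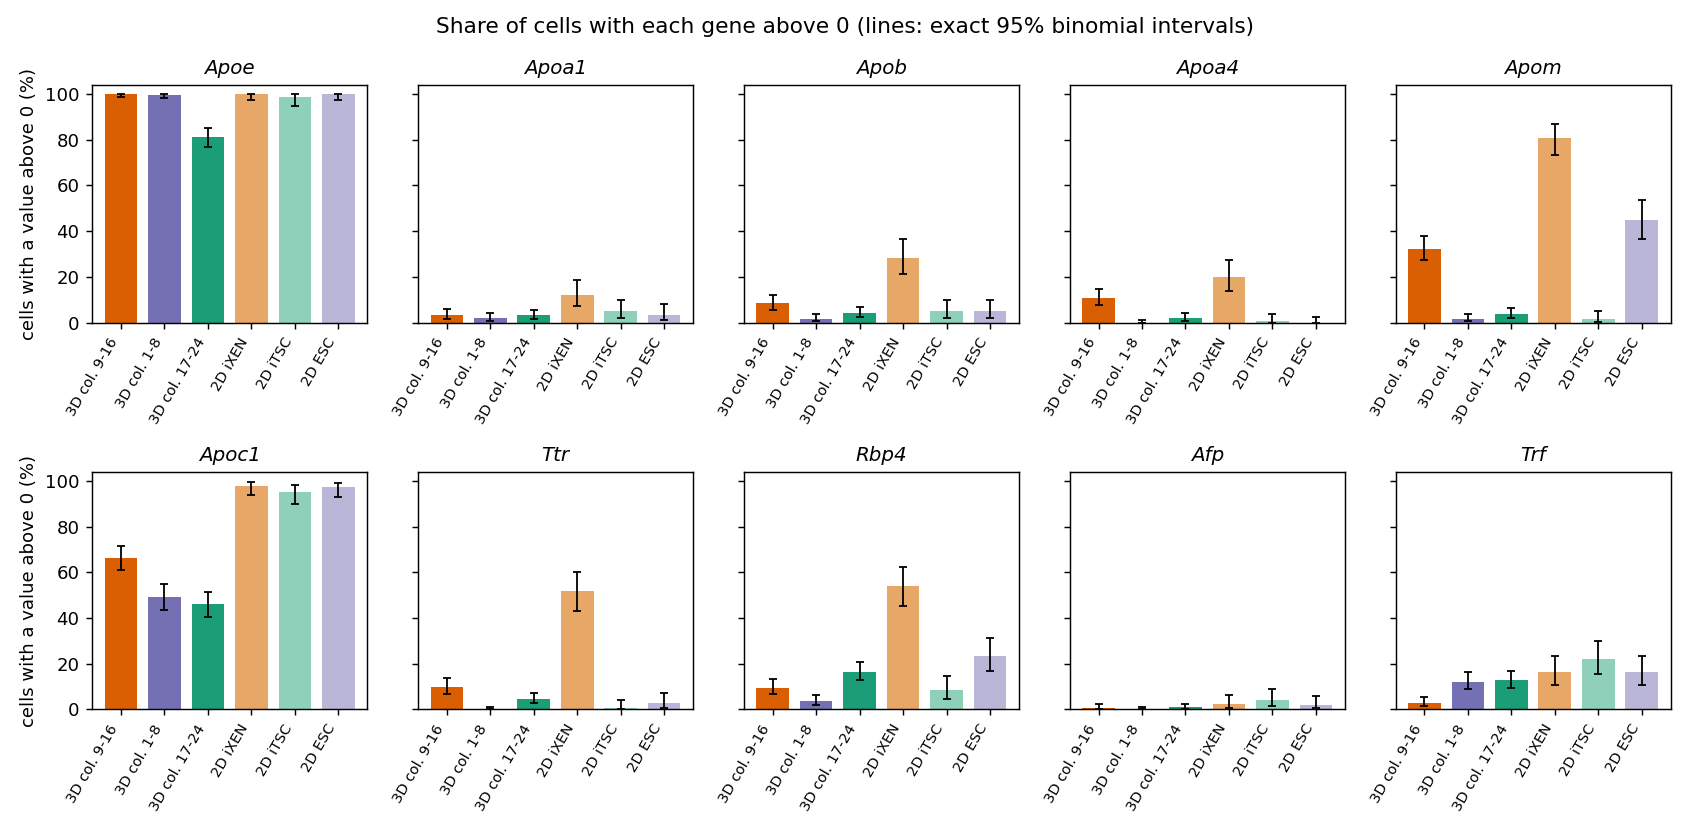
Bars give the percent of cells of each group with the gene above 0, with exact 95% intervals. *Apoe* is near 100% in all groups but columns 17-24 (81.3%), *Ttr* and *Rbp4* exceed 50% in iXEN only, and *Afp* stays at or below 4.26% in all 6 groups.

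*Afp* encodes alpha-fetoprotein, a fetal relative of albumin and a classical product of visceral endoderm. It was found in very few cells of either endoderm-like group. Only 2 VE-like cells were positive, at 60.8 and 3.66 TPM, and the higher of these was a well in which the Epi markers led. In iXEN 3 cells were positive (2.13%, 0.44 to 6.09%), at 34.8, 21.7 and 7.70 TPM. All Epi-like cells were listed at 0, and the 6 positive iTSCs and 3 positive ESCs did not exceed 6.4 TPM. The highest values were in 3 cells of columns 17-24, at 2493, 1348 and 319.7 TPM. The first 2 of these were led by VE markers and the last by Epi markers. Each also had *Ttr* (561, 221.7 and 592 TPM), *Apoa1* (20.2, 120.4 and 706 TPM) and *Trf* (1431, 465 and 1024 TPM). All 3 had *Rbp4* as well, and *Pou5f1* and *Amn*, the gene of the endocytic receptor subunit amnionless, were at 0 in each. Another VE marker, the endocytic adaptor gene *Dab2*, was at 392, 118.7 and 126.5 TPM, and *Foxa2* at 265.1 and 155.8 TPM in the first 2 and at 0 in the last. *Alb* and *Afm*, the neighbours of *Afp* on chromosome 5 (GRCm38, chr5:90460897-90553543), had at most 1.43 and 0.362 TPM in any group.

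*Trf* encodes transferrin, the iron carrier of plasma. Unlike the other genes, it had a lower mean in the VE-like than in the Epi-like block. In the VE-like block 9 cells were positive, or 2.86% (1.31 to 5.35%), with plate means of 1.17, 1.25 and 2.54 TPM. In the Epi-like block 38 cells were positive, or 12.1% (8.71 to 16.2%), with plate means of 15.1, 13.6 and 23.4 TPM. The plate means did not overlap, and the VE-like block lay 2.82 below (2.70 to 2.90). Columns 17-24 had 12.7% of cells positive (9.45 to 16.7%) and a mean of 23.9 TPM, or 9.95% and 6.91 TPM in the wells led by ExE markers. In 2D the order was different, with 10.8 TPM in iXEN, 3.70 in iTSC and 2.83 in ESC, at shares of 16.3%, 22% and 16.2%. Their intervals overlapped, and the iXEN mean rested on few cells, 3 of which held more than 50% of the sum.

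**Figure D3:**
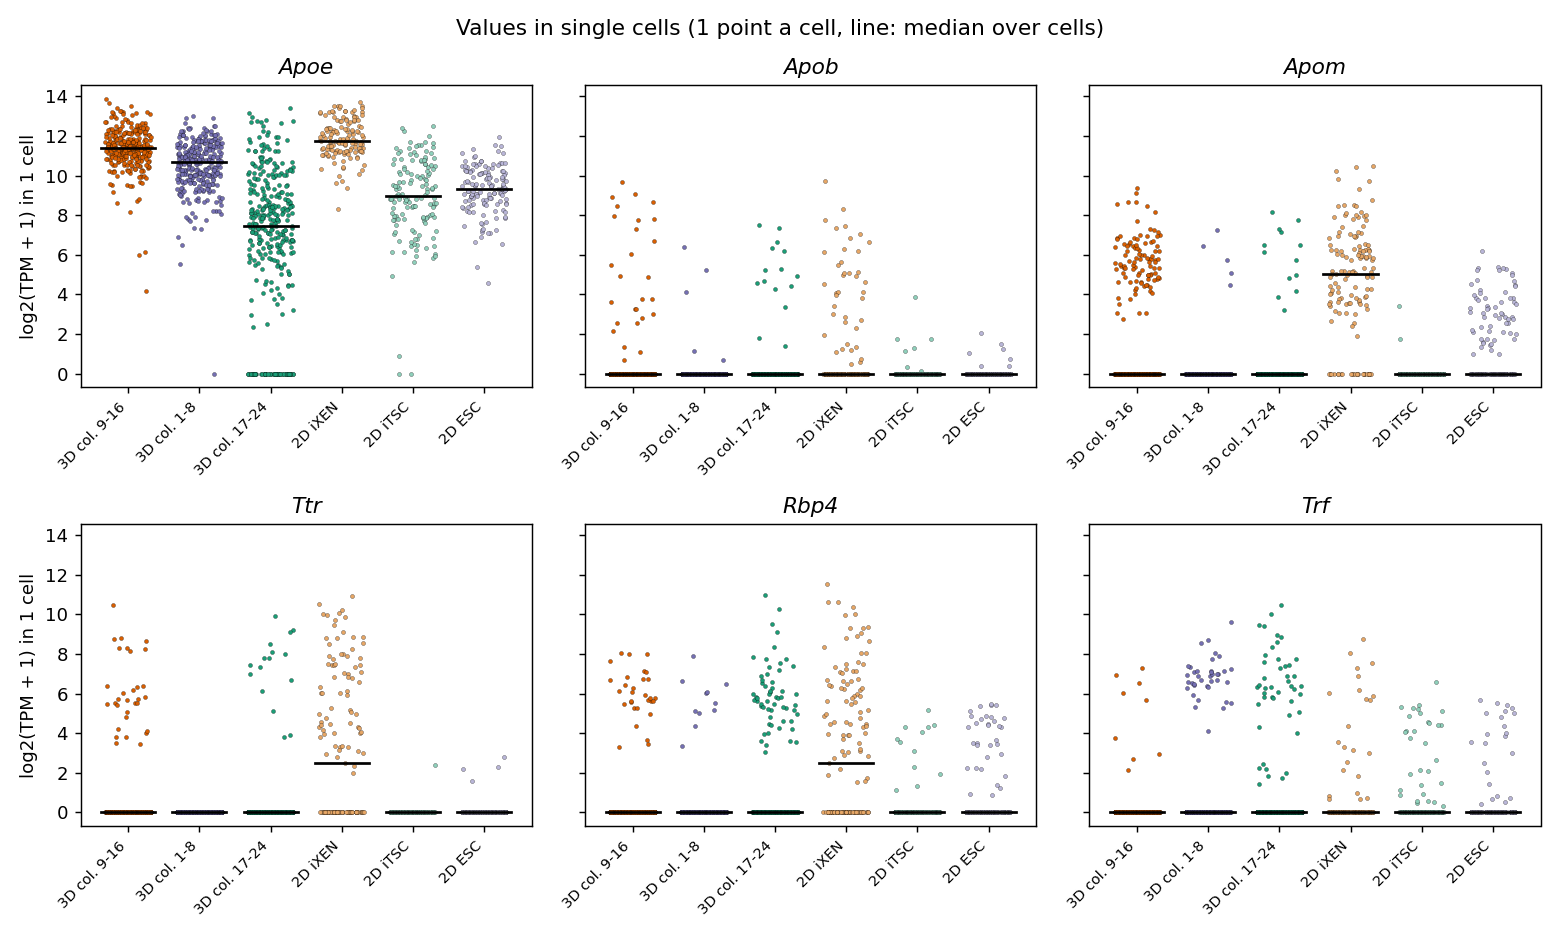
Each point is log2(TPM + 1) of a gene in 1 cell and each line the median over the cells of a group. *Apoe* is a continuous band in the groups, whereas *Apob*, *Ttr*, *Rbp4* and *Trf* have medians of 0 in all 3D blocks, and *Ttr*, *Rbp4* and *Apom* have medians above 0 in iXEN only.

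Counted over the 10 genes, 5 passed the filter on low values (above 0 in at least 10% of cells of either group) between the VE-like and the Epi-like block. *Apoa4* and *Apom* were higher past the fold in the VE-like block, where 13.6% of all 10662 genes tested were higher, and *Trf* was lower, where 15.3% were lower. *Apoe* and *Apoc1* were below the fold. *Ttr* and *Rbp4* also differed by over 2-fold with the same sign on each plate, but at 9.84% and 9.52% of VE-like cells they fell just under the filter. *Apoa1* and *Apob* were under it as well and turned sign on plate 3, and *Afp* had too few cells. Since the filter favours a difference in a gene that passed only by its share in the higher group, this count is no support for a shared change.

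Between the VE-like block and iXEN 9 of the 10 genes passed the filter. *Apom*, *Ttr*, *Rbp4* and *Trf* were lower past the fold in the VE-like block, against 4.74% of 12248 genes tested. None was higher, against 2.15%. *Apoe*, *Apoc1*, *Apoa4*, *Apoa1* and *Apob* were below the fold or changed sign between plates. The median over the 9 genes was -0.65, and over all genes tested 0.00. *Ttr*, *Rbp4*, *Trf*, *Apoa1* and *Apob* passed the filter only by their share in iXEN. The count and the median are therefore no support for a shared change. The groups differed in depth, and the comparison was repeated in cells with 6000 to 9000 genes above 0, which had a median of 6708 genes in VE-like and 8306 in iXEN cells. *Apom* then had means of 25.99 and 100.8 TPM, *Ttr* 6.71 and 120.1 TPM, and *Rbp4* 10.7 and 150.5 TPM. *Ttr* was above 0 in 11.2% of these VE-like cells (5.93 to 18.8%) and in 51.7% of these iXEN cells (40.8 to 62.6%), and the same 4 genes plus *Apoa1* and *Apob* were lower past the fold. The remaining gap in depth was not closed by this range. The range also drew VE-like cells mainly from plate 3, with a median of 6622 genes. The deepest VE-like cells of plates 4 and 5 had 6495 and 6814 genes. On plate 3 alone *Apoa1* and *Apob* differed from iXEN by -3.17 and -3.55, so depth and plate cannot be told apart here.

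Between iXEN and ESC 9 of 9 genes that passed the filter were higher in iXEN, where 15.3% of 13681 genes were higher and 12.8% lower. Between iXEN and iTSC 8 of 9 were higher, where 11% of 13450 genes were higher and 9.99% lower. *Apoc1* was the exception and lay 0.24 below iTSC. *Apoa1*, *Apob* and *Ttr* passed the filter only by their share in iXEN in both comparisons, and so did *Apoa4* and, against iTSC, *Apom* and *Rbp4*. The filter favours a difference in such genes, and the counts are therefore no support for a shared change. The largest differences were those of *Ttr*, at 6.84 over ESC and 6.95 over iTSC. Differences of *Apoa1* and *Apoa4* rested on 12.1% and 19.9% of iXEN cells, whereas *Apoe*, *Apoc1* and *Apom* were present in most.

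The block of columns 17-24 was mixed, and most of these genes were unevenly spread over its wells. Between this block and iTSC 4 of 10 genes passed the filter, of which *Rbp4* and *Trf* were higher past the fold (10.8% of 13012 genes were) and *Apoc1* was lower (4.73% were). *Rbp4* passed the filter only by its share in columns 17-24. Without the wells against their group, *Rbp4* and *Trf* were still past the fold, at 1.54 and 1.78, with means of 5.93 and 6.91 TPM against 1.38 and 1.30 TPM in iTSC. *Apoc1*, at -0.92, then fell below the fold, and *Apoe*, at -1.24, came past it. The 24 wells led by VE markers held 45% of the summed *Apoe*, 84% of *Apob*, all of *Apoa4*, 97.7% of *Apom*, 52.3% of *Ttr*, 39.1% of *Rbp4* and 35.5% of *Trf*. Their mean *Apoe* was 4656 TPM, against 663 TPM in the wells led by Epi markers and 276.3 TPM in those led by ExE markers. In the 24 wells *Ttr* was positive in 11, *Rbp4* in 11, *Apob* in 10 and *Apom* in 12, with means of 90.02, 135.4, 28.03 and 48.7 TPM. In the ExE-led wells *Ttr* was positive in 2 (up to 950 TPM), *Apob* in 2, *Apom* in 1 and *Apoa4* in none. *Rbp4* and *Trf* were present there too, in 24 and 21 cells.

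Compared with columns 17-24 as a whole, *Apoe*, *Apoa4* and *Apom* were higher past the fold in the VE-like block (6.66% of 10836 genes were) and *Trf* was lower (14% were), of 6 genes that passed the filter. *Apoa4* and *Apom* passed it only by their share in the VE-like block, and *Trf* only by its share in columns 17-24. This count is therefore no support for a shared change. Without the wells whose markers went against their block, the differences of *Apoa1*, *Apob* and *Ttr* from columns 17-24 came to 3.76, 3.56 and 1.58, each past the fold, with *Apoa1* and *Apob* under the low-value filter and *Ttr* exactly at its limit, in 10% of VE-led cells. *Trf*, at -1.60, no longer passed the filter. Between the Epi-like block and ESC, *Apoe* (1.22) and *Trf* (2.27) were higher past the fold in the embryoids (7.7% of 13109 genes were) and *Apom* was lower by 1.69 (5.05% were), of 5 genes that passed the filter. *Apom* passed it there only by its share in ESC.

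The weakly expressed genes were often found in the same cells. Counting *Apoa1*, *Apob*, *Apoa4*, *Apom*, *Ttr* and *Rbp4*, 53% of VE-like cells had none above 0, 99 cells had 1, 26 had 2 and 23 had at least 3 (7.30%, 4.68 to 10.8%). In iXEN 17 cells had none and 67 had at least 3 (47.5%, 39.1 to 56.1%), including 8 cells with all 6. No VE-like cell had all 6. ESCs had at least 1 in 61.3% of cells (52.7 to 69.3%), mostly *Apom* or *Rbp4*, but at least 3 in 2 cells only. The 23 VE-like cells with at least 3 of the genes came from every plate (9, 4 and 10 on plates 3, 4 and 5). They had a median of 5370 genes above 0, against 5125 in the cells with none and 5896 in those with 1 or 2. In iXEN the median was 7607 genes in cells with none, 8847 with 1 or 2 and 8695 with at least 3.

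**Figure D4:**
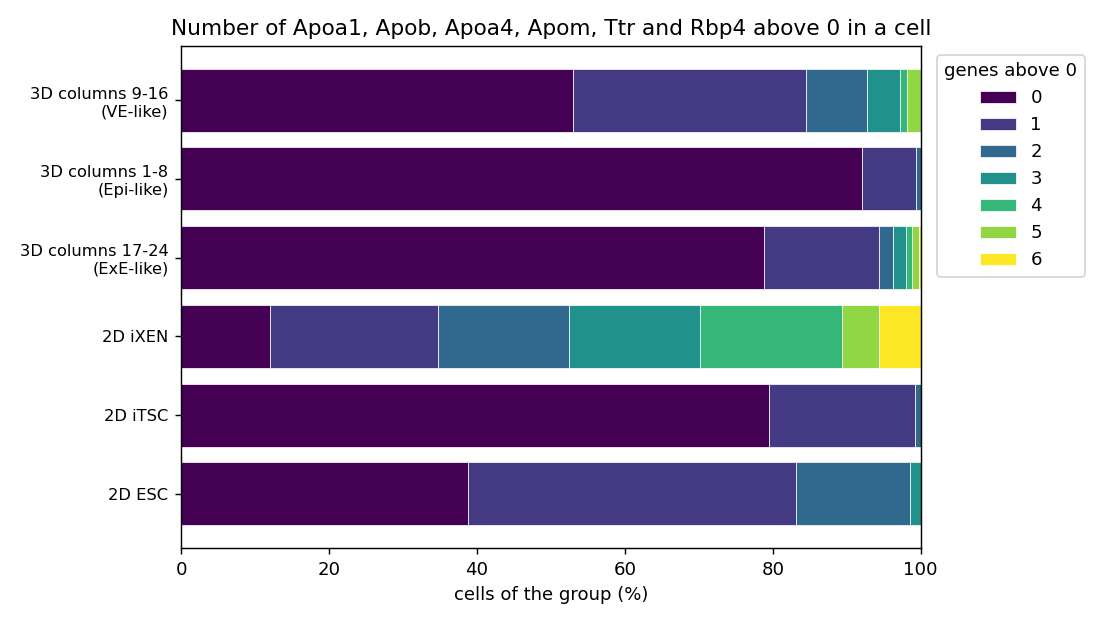
Each bar splits the cells of a group by how many of the 6 named genes were above 0. At least 3 genes were found in 47.5% of iXEN cells, 7.30% of cells in columns 9-16 and 3.68% of cells in columns 17-24.

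Pairs of genes showed this more closely. Of the 27 VE-like cells with *Apob*, 16 also had *Ttr* (59.3%), whereas 5.21% of the cells without *Apob* did. In iXEN 35 of 40 *Apob* cells had *Ttr* (87.5%) against 37.6% of the others. *Ttr* and *Rbp4* were found together in 60 iXEN cells, that is in 82.2% of *Ttr* cells, against 23.5% of cells without *Ttr* having *Rbp4*. As a description, with cells of 1 culture as points, Pearson's r of log2(TPM + 1) between *Ttr* and *Rbp4* was 0.73 over the iXEN cells. Between *Apob* and *Ttr* it was 0.68 in iXEN and 0.65 in the VE-like block (values centred on plate means). Over the 15 pairs of the 6 genes the median r was 0.52 in iXEN (0.30 to 0.73) and 0.27 in the VE-like block (0.05 to 0.65). In iXEN r of *Apoe* was 0.61 with *Ttr* and 0.62 with *Rbp4*, and in the VE-like block it was 0.13 and 0.16. The number of genes above 0 in a cell had r between -0.15 and 0.09 with the 10 genes in iXEN and between -0.09 and 0.22 in the VE-like block.

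Genes that load lipid onto apolipoprotein B were found in many more cells than *Apob* itself. *Mttp*, the microsomal triglyceride transfer protein that lipidates apolipoprotein B, was above 0 in 81.3% of VE-like cells and 98.6% of iXEN cells, at means of 36.1 and 59.5 TPM, against 1.66 TPM in the Epi-like block. *Soat2*, which esterifies cholesterol for lipoproteins, had 51.4, 71.8 and 2.41 TPM in the same order. Of 15 genes on the list of lipoprotein assembly and lipidation, 11 passed the filter between the VE-like and Epi-like blocks. The median difference of these was 0.76 against -0.11 over all genes tested. Past the fold 5 were higher and 3 lower, where 13.6% of all genes tested were higher and 15.3% lower. Among the lower ones were *Abcg1*, a cholesterol exporter (0.585 against 13.2 TPM), and *Apobec1*, the enzyme that edits the *Apob* transcript (1.03 against 8.85 TPM). Between the VE-like block and iXEN none of the 12 that passed was past the fold, where 2.15% of all genes were higher and 4.74% lower.

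Receptors for such particles differed in both directions. *Lrp2* (megalin) had 106.1 TPM in the VE-like block, 116.8 in iXEN and 4.05 in the Epi-like block, and *Lrpap1*, its chaperone, 2147, 1323 and 169.3 TPM. Of 11 receptor genes 10 passed the filter against the Epi-like block, with 4 higher, among them *Vldlr* (8.09 against 2.19 TPM), and 2 lower, among them *Lrp1* (2.58 against 11.1 TPM). Against iXEN 0 of 11 were higher and 2 lower. Of 9 other apolipoproteins, 3 passed against the Epi-like block, where *Clu*, the gene of clusterin, was higher (30.6 against 2.44 TPM) and *Apoa2* lower (2.63 against 16.3 TPM). Against iXEN 3 of 4 were lower in the VE-like block, namely *Apoc2*, *Clu* (143.8 TPM in iXEN) and *Apoa2* (10.9 TPM in iXEN). Over all genes tested, 13.6% were higher and 15.3% lower against the Epi-like block, and 2.15% and 4.74% against iXEN.

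Genes around the carriers did not follow them. On the retinol list, *Cyp26a1*, which degrades retinoic acid, had 45.8 TPM in the VE-like block and 40.8 in iXEN and was listed at 0 in the Epi-like block. The retinoid-binding genes *Rbp7*, *Crabp1* and *Crabp2* were lower in the VE-like block, at 0.0799, 0.317 and 0.557 TPM against 10.98, 12.5 and 12.6 TPM. In all, 2 of the 6 that passed were higher and 4 lower than in the Epi-like block, and none of 6 was past the fold against iXEN. On the iron list, *Tfrc*, the transferrin receptor, had 0.776 TPM in the VE-like block and 1.40 in iXEN, against 41.4 TPM in the Epi-like block and 93.4 in ESC. *Slc40a1*, which encodes the iron exporter ferroportin, was higher in the VE-like block (18.3 against 7.58 TPM). Of 11 iron genes 5 passed against the Epi-like block, 1 was higher and 1 lower, and 0 of 7 were past the fold against iXEN. For both lists, the shares over all genes were 13.6% higher and 15.3% lower against the Epi-like block. Against iXEN these shares were 2.15% and 4.74%.

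Other plasma proteins were scarce. Of 17 secreted plasma proteins, 2 passed the filter between the VE-like and Epi-like blocks, and *Gc*, the vitamin D-binding protein, was higher (7.28 against 0.485 TPM). Against iXEN 2 of 7 were lower, *F2* (prothrombin, 2.42 against 11.9 TPM) and *Serpinf2* (an inhibitor of plasmin, 0.670 against 3.04 TPM). Of all genes tested, 13.6% were higher than in the Epi-like block and 4.74% lower than in iXEN. *Alb*, *Vtn* and *Ambp* had at most 1.43 TPM in either endoderm-like group.

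**Figure D5:**
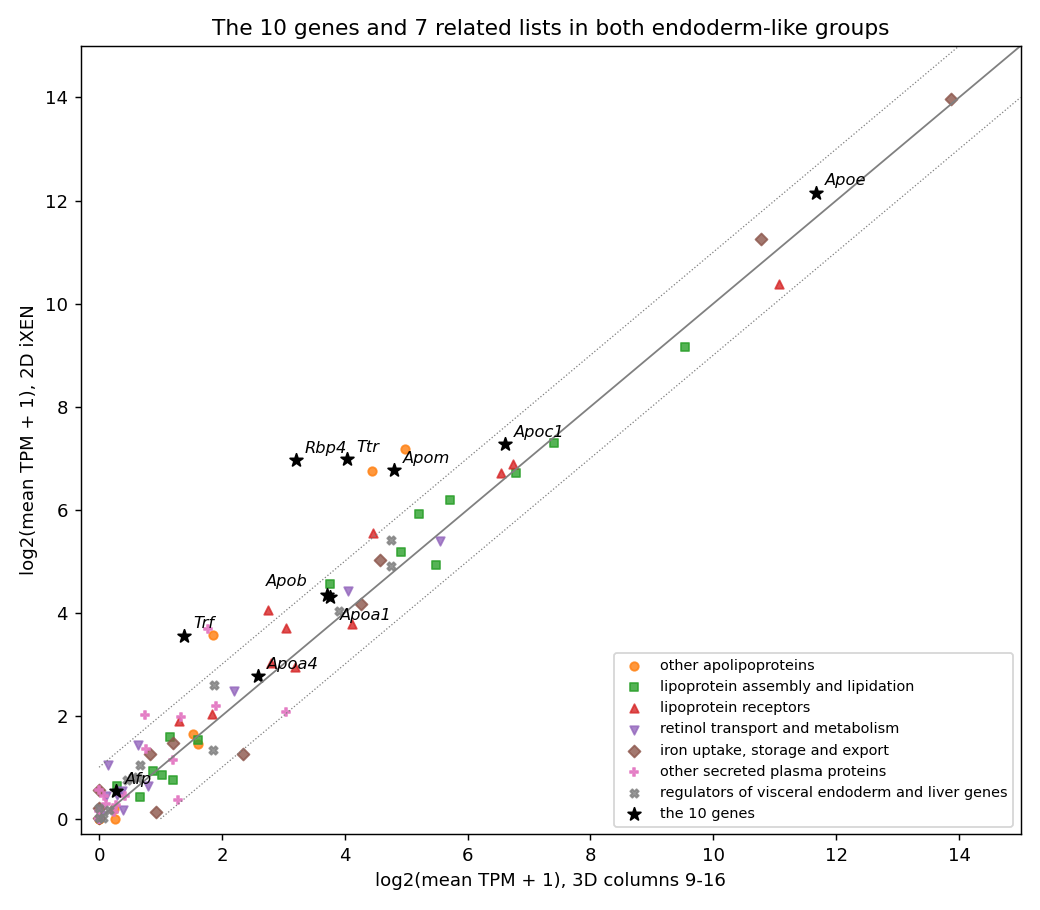
Each point is a gene, with log2(mean TPM + 1) in columns 9-16 on the x axis and in iXEN on the y axis; the solid line marks equal levels and the dotted lines a difference of 1. *Rbp4*, *Ttr*, *Apom* and *Trf* lie above the upper dotted line, while *Apoe*, *Apoc1*, *Apob*, *Apoa1* and *Apoa4* lie between the lines with most of the related genes.

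Of 13 transcription factors of liver and visceral endoderm that were listed, 5 had a mean above 1 TPM in the VE-like block. *Foxa2* and *Hnf4a* stood out, at 26.1 and 14 TPM against 0.0150 and 0.166 TPM in the Epi-like block. In iXEN they had 41.5 and 15.4 TPM, and the VE-like block was below the fold from both. *Srebf2* had 25.97 TPM in the VE-like block and 29.1 in iXEN. *Foxa3* and *Zbtb20* were weak, at 2.66 and 2.61 TPM in the VE-like block and 5.02 and 1.51 TPM in iXEN. *Nr5a2*, an orphan receptor of pluripotent and liver cells, had 2.27 TPM in the Epi-like block and 0.0042 in the VE-like block. *Rxra*, the partner of many nuclear receptors, had 2.25 TPM in the Epi-like and 0.591 TPM in the VE-like block. Against the Epi-like block 2 of 6 regulators that passed were higher and 3 lower, where 13.6% and 15.3% of all genes tested were. Against iXEN none of 7 was past the fold, where 2.15% of all genes were higher and 4.74% lower.

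The promoter of *Rbp4* is shown because its gene was low in the VE-like block and its window held letters of a factor present there. The 250 bases before the start were searched on both strands. RefSeq promoters (GRCm38.p6) were given for 7 of the 10 genes, at 10 starts. The FOXA letters were searched as TGTTTAC. Another form of them, TATTTAC, counted as well. They stood in 1 of 2 *Rbp4* starts and in none of the other genes, against 5.76% of all 32851 promoters. The letters bound by GATA-family factors, written AGATAA, were in none of the 10 and in 9.99% of all promoters. Those of many nuclear receptors, written AGGTCA, were in none of the 10 and in 14% of all promoters. The HNF4 letters, CAAAGTCCA, were in none either and in 0.384% of all promoters. The sequence is written 5′ to 3′ on the strand of the gene, and the capitals mark the letters, which match on the opposite strand. It lies at chr19:38125322-38125571 on the minus strand and overlaps no annotated exon.
Rbp4: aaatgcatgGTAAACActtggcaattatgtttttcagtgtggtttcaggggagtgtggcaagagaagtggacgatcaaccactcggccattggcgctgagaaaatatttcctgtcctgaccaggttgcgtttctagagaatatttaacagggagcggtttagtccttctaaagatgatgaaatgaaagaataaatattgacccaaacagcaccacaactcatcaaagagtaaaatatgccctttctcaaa
A match of letters is a description of the window and not a site shown to be bound. *Foxa2* was at 26.1 TPM in the VE-like block, in which 30 cells had *Rbp4*.

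Within the VE-like block, the genes whose values moved most closely with *Apoe* were *Npl*, which encodes N-acetylneuraminate pyruvate lyase of sialic acid breakdown, with r = 0.64 (0.41 to 0.79 by plate), and the lysosomal protease genes *Ctsc* (0.58, 0.48 to 0.69) and *Lgmn* (0.54, 0.52 to 0.61). These were the highest 3 of 7903 genes above 0 in at least 25% of these cells, over which the median r was 0.03 and the 99th percentile 0.33. For *Apoc1* the 3 highest, *Fgfr1op2*, *Jmjd8* and *Dppa2*, had r of 0.27, 0.24 and 0.24 only, where the 99th percentile was 0.18, and *Apoc1* and *Apoe* themselves had r = 0.21. The other 8 genes were above 0 in less than 50% of VE-like cells and were not ranked in this way.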

How the data were processed

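Single cells were sorted into plates and sequenced by SMART-seq2, which adds no molecular identifiers. The authors pseudoaligned the reads with kallisto to the GRCm38 transcriptome, summed them per gene with tximport, filtered mitochondrial, ribosomal and pseudogenes, and deposited TPM for 20999 genes in 1931 wells. Sums over the deposited genes were 108692 to 782286 per kept cell (median 637389). Wells without values (39) and others below 2500 genes above 0, 525 in all, were left out. No doublet caller was run. No kept cells were identical. Kept cells numbered 315 in columns 9-16, 314 in columns 1-8, 353 in columns 17-24, 141 iXEN, 141 iTSC and 142 ESC, and 107 and 87 of the VE-like and iXEN cells had 6000 to 9000 genes.

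Groups were taken from the well labels. Because each condition is 1 sample, no p-value and no error across cells was computed. A pseudocount of 1 TPM was used, so differences understate the change of low genes. Low-value filter (10% of cells of either group), fold (2) and plates are as stated with the results. The genes, the related lists, the marker lists and the rules were chosen with earlier results of these data known. All 10 genes were described. From each related list up to 4 genes past the fold against the Epi-like block or iXEN were named by size, together with regulators above 1 TPM in the VE-like block. *Alb*, *Afm*, *Vtn*, *Ambp*, *Apoc3*, *Apoc4* and *Apoa5* were chosen after their values were seen. Genome positions and exons came from Gencode vM21 on GRCm38, the build of the data. Some list genes and sequence letters are not reported here. The calculation was tested on simulated data. Alternatives were other scales, pseudocounts, averages, depth limits, wells against their block, no filter, and leaving out each plate. Python 3.11.15, numpy 2.4.6, pandas 2.3.3, scipy 1.17.1 and matplotlib 3.10.9 were used.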

Additional observations from a re-analysis of the deposited data

Results flagged for a closer look

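*Trf* was picked out because its difference between endoderm-like cells and the other groups had opposite signs in 3D and in 2D. The VE-like block lay below the Epi-like block by -2.82 on the log2 scale of mean TPM + 1, with the same sign on plates 3, 4 and 5, whereas iXEN lay above ESC by 1.62. The values were -3.25 for the VE-like block minus columns 17-24, a mixed block, and 1.32 for iXEN minus iTSC. Of the summed *Trf* of columns 17-24, wells led by Epi markers held 47.2%, by VE markers 35.5% and by ExE markers 17.3%. The VE-led wells among these had a mean of 124.9 TPM. Without the wells against their block, *Trf* in the VE-like block minus columns 17-24 came to -1.60. The difference between 3D and 2D was not tested, since each condition is 1 sample. By the mean of log2(TPM + 1) over cells, the VE-like block lay below the Epi-like block by -0.68 and iXEN above ESC by 0.14, so the 2D side depends on a few cells with high values.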

How the results depend on the processing

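Of 760 differences of single genes under alternative settings, 665 kept their sign and their side of the fold, 44 fell below it, 34 came past it, 15 changed sign by at least 0.1 without having been past it and 2 reversed. The reversed ones were *Trf* for iXEN minus iTSC, at -0.010 with the mean of log2(TPM + 1) over cells, and *Apoa1* for columns 17-24 minus iTSC, at -0.32 without the wells against their block. Between the VE-like and Epi-like blocks the 2 genes counted as higher became 1 with a pseudocount of 10 or no minimum of genes, 4 with no low-value filter, and 1 to 4 with a plate left out (*Apoa4* under the filter without plate 3, *Ttr* and *Rbp4* above it without plate 4). The 1 counted as lower, *Trf*, became 0 with the mean of logs. By that mean *Apoa4* (0.56) also fell below the fold and *Apoc1* (1.31) came past it. Against columns 17-24 the same 2 genes moved likewise, to 0.45 and 1.41. Between the VE-like block and columns 17-24 the 1 lower became 0 with the mean of logs or without wells against their block, and 2 with no minimum of genes. Between the VE-like block and iXEN *Trf* fell below the fold with a pseudocount of 10 (-0.84) or the mean of logs (-0.54). *Apoc1* came past it with the mean of logs (-2.34), *Apoa1* without plate 4 (-1.10) and *Apob* without plate 5 (-1.49). Between iXEN and iTSC the 8 higher became 5 with the mean of logs. Between iXEN and ESC *Apoa1* (0.52), *Apoa4* (0.78) and *Trf* (0.14) fell below the fold with the mean of logs. *Apoa4* and *Trf* also did so with a pseudocount of 10. Between the Epi-like block and ESC the 2 higher became 1 and the 1 lower 2 with the mean of logs, and the 1 lower became 0 with a pseudocount of 10. Between columns 17-24 and iTSC the 2 higher became 0 and the 1 lower 2 with the mean of logs, the 1 lower became 0 with no minimum or at 6000 to 9000 genes, and the 2 higher became 6 with no filter. The share of VE-like cells with at least 1 of the 6 weak genes, 47%, was 38.9% with no minimum, 64.5% at 6000 to 9000 genes and 38.7 to 52.4% with a plate left out, and that of iXEN, 87.9%, was 74% with no minimum. The cause of these changes was not tested, except that the filter and the minimum set which genes and cells enter. Comparisons with the Epi-like block were not run at 6000 to 9000 genes, because a plate had no such cell. Setting the highest cell of each group to the mean of its plate, an alternative chosen after seeing the data, changed no count by over 1.5 times. Of 442 shares of single genes under alternatives, 63 left the interval. No paired analysis was possible because each condition is 1 sample.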
